A study of Rattus norvegicus with 32 samples.

Results

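The genes examined were the platelet-derived growth factor (PDGF) ligands and receptors of the rat, taken as the rows whose symbol was Pdgfa, Pdgfb, Pdgfc, Pdgfd, Pdgfra or Pdgfrb. Each symbol matched 1 row, so that 6 of the 32623 genes in the deposited tables were members, 4 of them ligands and 2 receptors. RNA-seq had been performed on liver sinusoidal endothelial cells (LSECs), the fenestrated endothelium that lines the hepatic capillaries, in 32 libraries from male rats. In the carbon tetrachloride (CCl4) experiment, LSECs came from 6 untreated Wistar Han rats (healthy) and from Wistar Han rats that inhaled CCl4, a hepatotoxin, for 2 weeks (acute, n = 5), 6 weeks (fibrosis, n = 5) or, by the series design text, 12 to 14 weeks (cirrhosis, n = 6). The CCl4 model was run with phenobarbital in the drinking water; whether the healthy rats drank it was not stated. The thioacetamide (TAA) experiment had 5 libraries labelled control and 5 labelled TAA control, of Wistar Han strain by the labels and of Sprague-Dawley strain by the design text. The labels do not settle which of these groups received TAA, another hepatotoxin, so each difference between them is given as TAA control minus control and neither is called treated.

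PDGF ligands are secreted dimers. PDGF-A and PDGF-B are activated inside the cell by furin-type proteases, whereas PDGF-C and PDGF-D carry a CUB domain that is cleaved off outside the cell by plasminogen activators. The receptor PDGFR-alpha binds the A, B and C chains and PDGFR-beta binds the B and D chains; both are receptor tyrosine kinases that signal through phosphoinositide 3-kinase, phospholipase C gamma and the Ras-MAPK cascade. In vessels, endothelial PDGF-B recruits pericytes that carry PDGFR-beta, and in the liver those pericytes are the hepatic stellate cells, for which PDGF is a classical mitogen during fibrosis. Endothelial cells are usually regarded as a source of PDGF more than as a site of the receptors.

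The libraries held between 25646531 and 46464289 expected counts each. LSECs had been separated on an iodixanol density gradient, which does not sort on a surface marker, and the labelled cell type was checked against markers. The LSEC markers Stab1, Stab2 and Lyve1 were detected in every group, but the mean log2 CPM (counts scaled to library size) over 11 LSEC markers was 9.95 in healthy, 6.75 in acute, 6.61 in fibrosis and 9.72 in cirrhosis libraries. Of the 11 LSEC markers tested, 9 fell in acute and 10 in fibrosis against healthy. All 14 immediate-early and dissociation genes fell in acute libraries, with a median log2 fold change of -5.30, and 13 of 14 fell in fibrosis libraries, with a median of -4.87. Macrophage markers fell in the same libraries, 10 of 11 in acute and 11 of 11 in fibrosis, and hepatocyte markers fell for 9 of 9 and 5 of 9. Of 8 pan-endothelial markers, 6 fell and 1 rose in acute injury and 6 fell and 0 rose in fibrosis. Of 11 capillary and large-vessel endothelial markers, 7 fell and 2 rose in acute injury and 8 fell and 2 rose in fibrosis. Of 7 cholangiocyte markers, 5 fell and 1 rose in acute injury, whereas 3 fell and 2 rose in fibrosis, with a median of -0.02. Lymphocyte markers fell for 6 and 5 of 7. Of 6 platelet markers, of interest because platelets carry PDGF, 4 fell and 1 rose in acute injury and 3 fell and 1 rose in fibrosis. In cirrhosis against healthy, 2 LSEC markers of 11 rose and 4 fell, 2 pan-endothelial markers of 8 rose and 3 fell, and 2 capillary and large-vessel markers of 11 rose and 2 fell. There, 6 of 14 immediate-early and dissociation genes fell (median -0.69), 3 of 8 cholangiocyte markers rose (median 0.94), 2 of 9 lymphocyte markers fell, 1 of 12 macrophage markers rose, 1 of 9 hepatocyte markers fell, and none of 6 platelet markers was called. By the calling rule given below, 37.9% of all genes fell and 35.5% rose in acute injury, and 34.9% and 35.3% in fibrosis. In cirrhosis 24.7% fell and 27.1% rose, and counts near these shares do not set a list apart. Hepatocyte markers ranged over the healthy libraries from 5.98 to 10.6 in mean log2 CPM, and macrophage markers from 4.33 to 7.46. In cirrhosis libraries the ranges were 7.16 to 9.34 and 5.92 to 7.55. The part of the marker shifts and of this spread in the PDGF results was not tested. In such bulk libraries, fewer cells of a type and less RNA per cell cannot be told apart.

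Against healthy LSECs, 3 of the 6 PDGF genes changed in acute injury, 2 in fibrosis and 5 in cirrhosis. A gene was called changed at a Benjamini-Hochberg adjusted p below 0.05 over all genes tested, from limma-voom with TMM (trimmed mean of M values) scaling, and a fold change above 1.5. By the same rule 73.4% of the 14317 genes tested changed in acute injury, 70.2% of 14538 in fibrosis and 51.8% of 14789 in cirrhosis, so the share of PDGF genes called was below that background in the first comparisons and above it in the last. By direction, acute injury had 1 member higher and 2 lower (35.5% and 37.9% of all genes), fibrosis 1 higher and 1 lower (35.3% and 34.9%), and cirrhosis 5 higher and 0 lower (27.1% and 24.7%). Fibrosis against acute gave 4 of 6 members, all higher, where 11% of all genes were called, 10.2% higher and 0.732% lower. That count of members fell to 1 to 3 on leaving out any library and to 2 with the edgeR quasi-likelihood test. Cirrhosis against fibrosis gave 4 of 6, 3 higher and 1 lower, with a background of 63.8% (34.3% higher, 29.5% lower), and cirrhosis against acute gave 6 of 6, 5 higher and 1 lower, with a background of 69.3% (37.5% higher, 31.8% lower). The difference between the groups labelled TAA control and control passed for 4 of the 5 members tested, all lower in TAA control, where 27.6% of all genes were called, 14.9% lower and 12.7% higher. The comparisons of acute, fibrosis and cirrhosis with healthy share the 6 healthy libraries. Acute and fibrosis libraries differed from each other at 11% of genes, and from healthy and cirrhosis libraries at 63.8% to 73.4%. Any difference in the preparation of these libraries cannot be told apart from disease stage. Its part in the PDGF results was not tested.

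**Figure D1:**
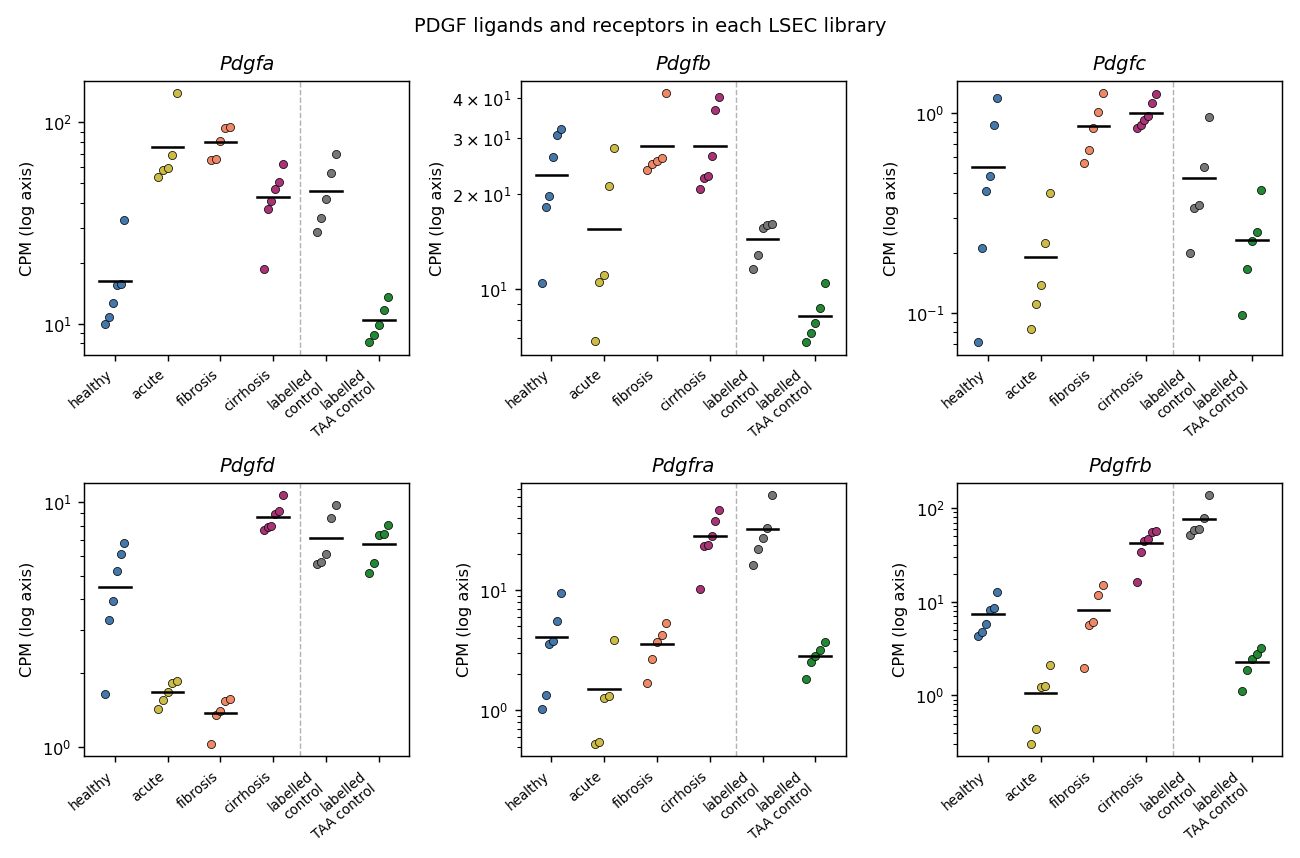
CPM of each PDGF gene (log axis) in each of the 32 libraries, 1 point a library, with the mean of each group as a bar; the dashed line separates the CCl4 experiment from the TAA experiment. By group mean, Pdgfa was highest in acute and fibrosis libraries, Pdgfd was lowest there, and Pdgfra and Pdgfrb were highest in cirrhosis libraries and in the libraries labelled control.

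Pdgfa (ENSRNOG00000001312), which encodes the A chain, the ligand of PDGFR-alpha alone, rose at every stage of CCl4 injury. RefSeq promoter sequences (GRCr8, an assembly later than the Rnor_6.0 used for the counts) were found for 5 of the 6 members, with none for Pdgfrb. Those of Pdgfa, the ligand called higher at all 3 stages, and of Pdgfra, the receptor with an entry, are shown. The 250 bases before the Pdgfa start lie at chr12:20759116-20759365 on the plus strand, with capitals marking a GC box, the Sp1-type motif GGGCGG, read on the opposite strand 187 to 182 bases before the start:
Pdgfa: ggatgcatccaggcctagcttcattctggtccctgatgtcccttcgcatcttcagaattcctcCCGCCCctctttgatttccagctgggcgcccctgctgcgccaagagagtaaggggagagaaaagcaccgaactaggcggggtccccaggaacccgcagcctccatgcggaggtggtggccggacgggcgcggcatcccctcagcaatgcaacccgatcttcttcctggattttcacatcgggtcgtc
Searched on both strands, that motif was also found before the starts of Pdgfb and Pdgfd, and 30.5% of the 33469 rat promoters of the same length hold it. The match describes the letters only; none of the other motifs searched, named with Pdgfra, matched in the Pdgfa window.

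Healthy libraries had a Pdgfa level of 9.94 CPM at the lowest, 14.1 at the median and 32.9 at the highest. The 5 acute libraries held 68.6, 58.1, 59.5, 53.6 and 139 CPM, and the 5 fibrosis libraries 65.5, 94.0, 64.9, 80.6 and 94.6 CPM. Each acute and fibrosis library therefore lay above the highest healthy library, whereas the cirrhosis libraries ran from 18.8 through a median of 43.7 to 61.9 CPM and overlapped the healthy range in 1 library, replicate 2. The means were 16.3 ± 8.48 CPM (SD, n = 6) in healthy, 75.8 ± 35.9 (n = 5) in acute, 79.9 ± 14.5 (n = 5) in fibrosis and 42.6 ± 14.5 (n = 6) in cirrhosis. The log2 fold change against healthy was 2.31 ± 0.32 (SE, limma-voom adjusted p = 3.19e-05) in acute injury, 2.51 ± 0.26 (limma-voom adjusted p = 3.11e-06) in fibrosis and 1.44 ± 0.32 (limma-voom adjusted p = 0.00246) in cirrhosis. Pdgfa then fell from fibrosis to cirrhosis by 1.02 on the log2 scale (SE 0.26, limma-voom adjusted p = 0.00352), with no overlap between these groups. Fibrosis and acute did not differ by the test (log2 fold change 0.25, 95% interval -0.27 to 0.77, limma-voom adjusted p = 0.471). The fall from acute to cirrhosis, by 0.85 (limma-voom adjusted p = 0.0212), depended on acute replicate 8, the library at 139 CPM, and without that library it was -0.62 (limma-voom adjusted p = 0.0571). By group mean, Pdgfa was thus highest in fibrosis and acute, which did not differ beyond their spread, then cirrhosis, then healthy. Acute and cirrhosis libraries overlapped, and their call was also lost with upper-quartile factors (-0.66, limma-voom adjusted p = 0.0553).

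Pdgfb (ENSRNOG00000017197) encodes the B chain, the endothelial ligand for pericyte PDGFR-beta, and did not pass the test against healthy at any stage. Healthy libraries ranged from 10.5 through a median of 22.9 to 32 CPM. Acute libraries held 6.88, 21.1, 11.1, 27.9 and 10.5 CPM, fibrosis libraries 24.8, 41.4, 23.8, 25.3 and 25.9 CPM, and cirrhosis libraries ran from 20.7 through 24.5 to 40.3 CPM. All 4 groups overlapped. The log2 fold change against healthy was -0.57 in acute (95% interval -1.39 to 0.25, limma-voom adjusted p = 0.186), 0.47 in fibrosis (-0.13 to 1.06, limma-voom adjusted p = 0.138) and 0.36 in cirrhosis (-0.24 to 0.96, limma-voom adjusted p = 0.281). Between stages, Pdgfb was higher in cirrhosis than in acute injury, by 0.95 (SE 0.32, limma-voom adjusted p = 0.0165). Pdgfb lost that call without acute replicate 1 (0.68, limma-voom adjusted p = 0.054). Pdgfb also lost it in the libraries with shared replicate numbers, fitted without a block (0.78, limma-voom adjusted p = 0.0879). It was also higher in fibrosis than in acute injury, by 1.07 (SE 0.33, limma-voom adjusted p = 0.0426), but that call was lost on leaving out any of 8 of the 10 libraries and in the edgeR quasi-likelihood test (adjusted p = 0.0779). Fibrosis and cirrhosis had almost the same mean, 28.2 CPM in both, with SDs of 7.38 and 8.27.

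Pdgfc (ENSRNOG00000010695), the ligand with a CUB domain that binds PDGFR-alpha, was close to the detection limit, with 2 to 59 counts a library. The level was 0.538 ± 0.417 CPM (SD, n = 6) in healthy, 0.191 ± 0.127 (n = 5) in acute, 0.864 ± 0.277 (n = 5) in fibrosis and 0.994 ± 0.158 (n = 6) in cirrhosis. The largest acute value, 0.398 CPM, lay below the smallest fibrosis value, 0.561 CPM, and below the smallest cirrhosis value, 0.844 CPM. Pdgfc was accordingly higher in fibrosis than in acute injury by 2.31 on the log2 scale (SE 0.41, limma-voom adjusted p = 0.00647) and higher in cirrhosis than in acute injury by 2.45 (SE 0.34, limma-voom adjusted p = 2.61e-05). Healthy libraries spanned 0.0714 to 1.18 CPM and overlapped every stage. The rise in cirrhosis against healthy, 1.25 on the log2 scale (SE 0.48, limma-voom adjusted p = 0.04), was lost with edgeR (0.87, adjusted p = 0.13), with DESeq2 (0.87, adjusted p = 0.109) and on leaving out any of 10 of the 12 libraries. The acute and fibrosis differences from healthy, -1.16 and 1.11, did not pass (limma-voom adjusted p = 0.139 and 0.0966). Pdgfc did pass in acute injury with library weights (-1.66, limma-voom adjusted p = 0.00733), in one fit over the 22 CCl4-experiment libraries (0.0466) and without healthy replicate 5 (0.0187). In fibrosis it passed in that one fit (limma-voom adjusted p = 0.0474), with library size only (1.52, 0.0319) and without healthy replicate 2 (0.0378).

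Pdgfd (ENSRNOG00000029148), the ligand with a CUB domain that binds PDGFR-beta, fell in acute injury and in fibrosis and rose above healthy in cirrhosis. Its level in healthy libraries was 1.64 CPM at the lowest, 4.58 at the median and 6.79 at the highest. The acute libraries held 1.68, 1.85, 1.82, 1.43 and 1.54 CPM and the fibrosis libraries 1.02, 1.53, 1.35, 1.4 and 1.56 CPM, while the cirrhosis libraries ran from 7.71 through 8.44 to 10.7 CPM. All fibrosis libraries lay below, and all cirrhosis libraries above, the whole healthy range, and the acute libraries overlapped it only through healthy replicate 2. The log2 fold change against healthy was -1.26 ± 0.37 (SE, limma-voom adjusted p = 0.00771) in acute injury, -1.5 ± 0.39 (limma-voom adjusted p = 0.00369) in fibrosis and 1.07 ± 0.28 (limma-voom adjusted p = 0.00583) in cirrhosis. With library size alone as the scaling, the acute value was -0.84 and did not pass (limma-voom adjusted p = 0.0577). In only the acute and healthy libraries with shared replicate numbers it was -0.79 and did not pass (limma-voom adjusted p = 0.0568). With the replicate number as a block it passed there (limma-voom adjusted p = 0.0435). The step from fibrosis to cirrhosis was 2.63 on the log2 scale (SE 0.17, 95% interval 2.26 to 3, limma-voom adjusted p = 3.53e-08), and that from acute to cirrhosis was 2.36 (SE 0.17, limma-voom adjusted p = 5.33e-08). Acute and fibrosis did not differ by the test (-0.19, 95% interval -0.58 to 0.19, limma-voom adjusted p = 0.449). Pdgfd and Pdgfa, both ligands, thus stood in opposite order in the acute and fibrosis libraries, Pdgfa above and Pdgfd below its healthy level.

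**Figure D2:**
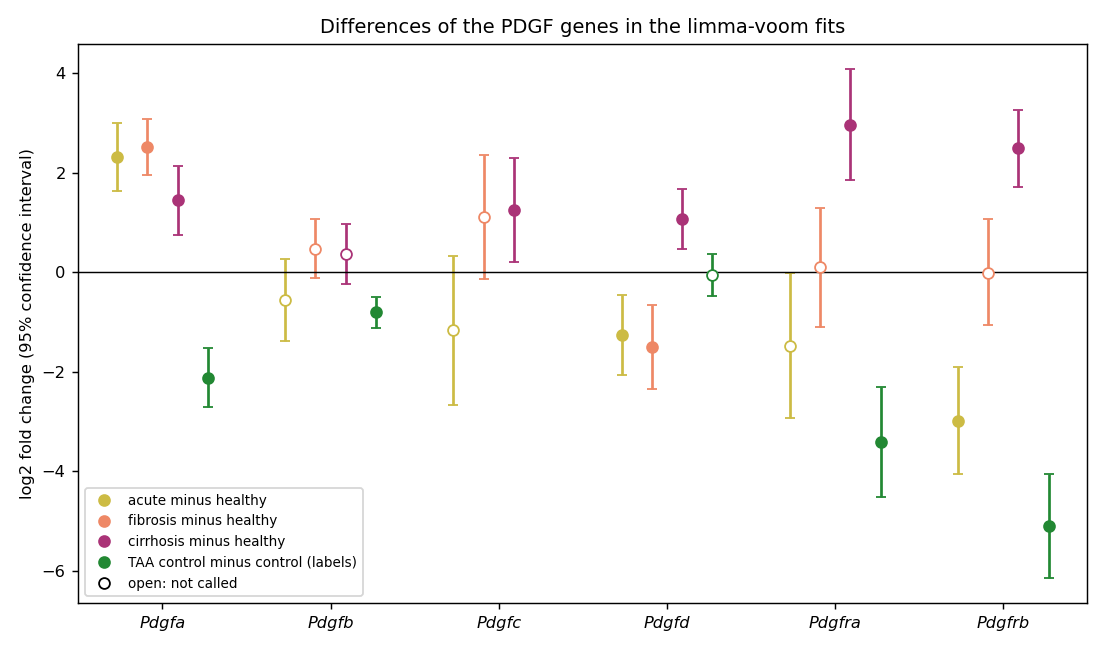
log2 fold change of each PDGF gene, with its 95% confidence interval as a bar, in 4 comparisons of the limma-voom fits; filled points were called and open points were not. Pdgfa was above 0 at all 3 CCl4 stages (2.31, 2.51 and 1.44), both receptors were above 0 in cirrhosis (2.96 and 2.48), and Pdgfc has no point for the TAA experiment because it did not pass the filter on low counts there.

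Pdgfra (ENSRNOG00000002244), the receptor for the A, B and C chains, rose against healthy in cirrhosis and did not pass the test in acute injury or fibrosis. The 250 bases before its start lie at chr14:33408517-33408766 (GRCr8) and are shown for the minus strand, on which the gene is read. Capitals mark GAGACC, a motif described as a shear-stress element in the PDGF-B promoter, and TGANTCA, an AP-1-like motif searched with any base at its centre:
Pdgfra: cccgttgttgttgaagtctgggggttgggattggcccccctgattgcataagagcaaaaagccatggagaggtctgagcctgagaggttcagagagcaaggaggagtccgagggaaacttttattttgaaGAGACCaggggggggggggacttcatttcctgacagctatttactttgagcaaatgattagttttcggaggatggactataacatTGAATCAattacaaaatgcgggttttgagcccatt
GAGACC, found 120 to 115 bases before the start, occurs in 13.7% of the 33469 promoters, and TGANTCA, found 35 to 29 bases before it, in 6.34%. The central base of the TGANTCA match is A, and the 6.34% counts matches with any central base. Neither motif was in the windows of Pdgfa, Pdgfb, Pdgfc or Pdgfd, and no overlap existed between the matches. GCGNGGGCG, the Egr1 motif, occurs in 4.29% of promoters and TATAAA in 12.9%, and neither was found before any of the 5 members.

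The Pdgfra level in healthy libraries ran from 1.02 through a median of 3.66 to 9.43 CPM. Acute libraries held 0.550, 0.525, 1.27, 1.31 and 3.86 CPM and fibrosis libraries 1.68, 3.72, 4.25, 5.38 and 2.66 CPM, all within or below the healthy range. Cirrhosis libraries ran from 10.2 through 25.9 to 46.4 CPM, so that the lowest of them was above every healthy, acute and fibrosis library. The log2 fold change in cirrhosis was 2.96 ± 0.52 against healthy (SE, limma-voom adjusted p = 0.00054), 2.93 ± 0.52 against fibrosis (limma-voom adjusted p = 0.000252) and 4.48 ± 0.69 against acute (limma-voom adjusted p = 5.55e-05). The acute difference from healthy, -1.48, did not pass (95% interval -2.93 to -0.02, limma-voom adjusted p = 0.0602), although it did with DESeq2 (adjusted p = 0.0416) or without acute replicate 8, healthy replicate 1 or healthy replicate 4 (limma-voom adjusted p = 0.0291, 0.0449 and 0.029). Fibrosis and healthy did not differ by the test (0.10, 95% interval -1.10 to 1.29, limma-voom adjusted p = 0.882). The fibrosis level was 1.63 above acute on the log2 scale (limma-voom adjusted p = 0.0434), a call lost on leaving out any of 8 of the 10 libraries and with edgeR (adjusted p = 0.107) and DESeq2 (adjusted p = 0.0553).

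Pdgfrb (ENSRNOG00000018461), the receptor for the B and D chains and a defining gene of pericytes, fell in acute injury, lay within the healthy range in 3 of 5 fibrosis libraries and rose in cirrhosis. The healthy libraries ran from 4.32 through 6.96 to 12.7 CPM. Acute libraries held 0.303, 0.442, 1.22, 1.26 and 2.12 CPM, all below the lowest healthy library. Fibrosis libraries were spread widely, at 5.66, 11.7, 6.13, 15.1 and 1.95 CPM, and cirrhosis libraries ran from 16.1 through 45.7 to 57.2 CPM, all above the highest healthy and fibrosis library. The log2 fold change against healthy was -2.98 ± 0.50 in acute injury (SE, limma-voom adjusted p = 0.000155), -0.01 ± 0.49 in fibrosis (95% interval -1.07 to 1.06, limma-voom adjusted p = 0.988) and 2.48 ± 0.36 in cirrhosis (limma-voom adjusted p = 0.000181). Fibrosis exceeded acute by 3.02 ± 0.76 (limma-voom adjusted p = 0.0209), a call lost without acute replicate 1 (2.65, limma-voom adjusted p = 0.0561) or acute replicate 2 (2.78, limma-voom adjusted p = 0.0547). Cirrhosis exceeded fibrosis by 2.55 ± 0.51 (limma-voom adjusted p = 0.000641) and acute by 5.49 ± 0.70 (limma-voom adjusted p = 1.16e-05), which corresponds to a 45.0-fold difference, the largest of any member between CCl4 groups.

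Counted by groups without overlap, 2 of the 6 members stood apart from healthy in acute injury, 2 in fibrosis and 3 in cirrhosis. The background was 59.8%, 58.5% and 27.2% of all genes tested, respectively. In acute injury Pdgfa lay wholly above healthy and Pdgfrb wholly below (29.1% and 30.7% of all genes), and in fibrosis Pdgfa lay above and Pdgfd below (29.4% and 29.1%). In cirrhosis Pdgfd, Pdgfra and Pdgfrb lay wholly above healthy, as did 11.7% of all genes. Between stages, only Pdgfc stood apart in fibrosis against acute, higher in all libraries (17.3% of all genes stood apart and 6.32% lay wholly higher). In cirrhosis against fibrosis 4 members stood apart (63.2%), Pdgfd, Pdgfra and Pdgfrb above (31.8%) and Pdgfa below (31.3%). In cirrhosis against acute Pdgfc, Pdgfd, Pdgfra and Pdgfrb stood apart (65.6%), all above (33.9%).

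Because stellate cells and portal fibroblasts carry both receptors, the markers of those cells were set beside them. The mean log2 CPM over 17 stellate cell markers was 3.66 in healthy (3.11 to 4.14 over libraries), 1.59 in acute (1.24 to 2.15), 2.42 in fibrosis (1.98 to 2.65) and 5.02 in cirrhosis (4.32 to 5.32). Of the markers tested, 13 of 15 fell and 1 rose in acute injury, 10 of 16 fell and 2 rose in fibrosis, and 11 of 17 rose and 1 fell in cirrhosis. The shares of all genes that fell and rose were 37.9% and 35.5%, 34.9% and 35.3%, and 24.7% and 27.1%. The marker that rose in acute injury was Reln, from 171 CPM in healthy to 1700 CPM, and the 2 that rose in fibrosis were Reln, at 1390 CPM, and Col1a1. The marker that fell in cirrhosis was Cygb, from 75.7 to 39.8 CPM. Among those that rose in cirrhosis, and chosen as examples after their values were seen, the pericyte gene Rgs5 went from 0.782 to 18.7 CPM and the collagen gene Col3a1 from 228 to 929 CPM. In acute libraries Hand2 and Lum were below 0.1 CPM on average. Of the smooth muscle and portal fibroblast markers, 6 of 9 fell in acute injury, 3 of 9 rose and 5 fell in fibrosis, and 5 of 9 rose and 1 fell in cirrhosis. The mean log2 CPM over 11 of them went from 2.18 in healthy to 0.401 in acute, 1.39 in fibrosis and 2.93 in cirrhosis. Against that mean, and named after their values were seen, Acta2 and Tagln were highest in fibrosis among the CCl4-experiment groups. Acta2 stood at 1.02 CPM in healthy, 26.3 in fibrosis and 8.08 in cirrhosis, and Tagln at 3.48, 61.0 and 19.0 CPM. Both lists and both receptors had their highest CCl4-group means in cirrhosis and their lowest in acute injury, and the part of these cells in the receptor results was not tested.

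**Figure D3:**
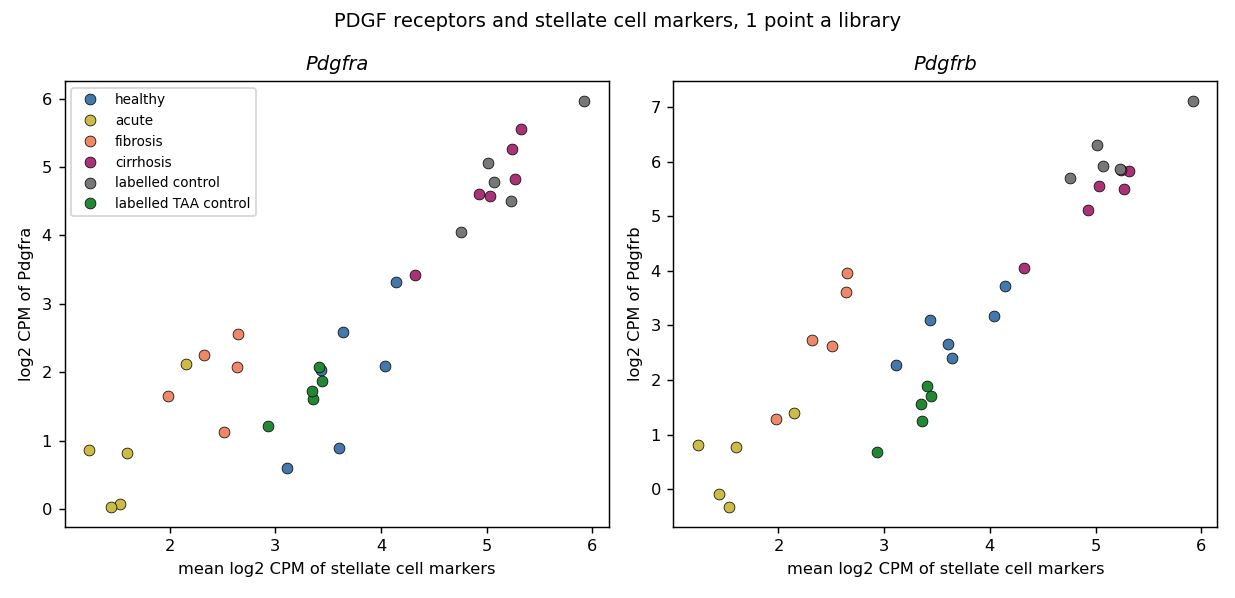
log2 CPM of Pdgfra (left) and Pdgfrb (right) against the mean log2 CPM of 17 stellate cell markers, 1 point a library, coloured by group. Cirrhosis libraries (marker means 4.32 to 5.32) lie at the upper right with the libraries labelled control, acute libraries (1.24 to 2.15) at the lower left.

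The receptors were next expressed relative to those markers, as the log2 CPM of the receptor minus the mean log2 CPM of the 17 markers in the same library, without a test. For Pdgfrb the mean difference was -0.77 ± 0.34 (SD, n = 6) in healthy, -1.08 ± 0.59 (n = 5) in acute, 0.42 ± 0.78 (n = 5) in fibrosis and 0.29 ± 0.33 (n = 6) in cirrhosis. The cirrhosis libraries, at -0.27 to 0.60, did not overlap the healthy libraries, at -1.24 to -0.33, whereas fibrosis, at -0.69 to 1.32, overlapped both. For Pdgfra the means were -1.74 ± 0.77 in healthy, -0.81 ± 0.63 in acute, -0.49 ± 0.54 in fibrosis and -0.31 ± 0.40 in cirrhosis, and all 4 groups overlapped. Relative to the marker mean, Pdgfrb was thus separate from healthy in cirrhosis, and Pdgfra was not separate from healthy at any stage. The mean shift from healthy to cirrhosis was nevertheless 1.43 for Pdgfra and 1.06 for Pdgfrb. Pdgfra overlapped there only through cirrhosis replicate 5, at -0.90, and healthy replicate 6, at -0.83. The markers themselves moved by unequal amounts, so these values depend on the markers averaged. In acute libraries Rgs5, Ngfr, Tcf21, Hand2, Lum, Lhx2 and Dcn averaged 0.0478 to 0.429 CPM, below the 0.5 CPM added before taking logs. The acute marker mean is therefore partly set by that added value.

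The balance of ligand and receptor within a library was followed by log2 ratios of CPM (pseudocount 0.5), without a test. Since CPM is not corrected for transcript length, only differences of a ratio between groups can be read. In acute libraries Pdgfra (0.525 to 3.86 CPM) and Pdgfrb (0.303 to 2.12 CPM) lay near the pseudocount, which lowers the acute ratios of ligand to receptor. The Pdgfa to Pdgfra ratio was 2.03 ± 1.22 (SD, n = 6) in healthy, 5.37 ± 0.53 (n = 5) in acute, 4.38 ± 0.57 (n = 5) in fibrosis and 0.64 ± 1.09 (n = 6) in cirrhosis. Acute (4.90 to 6.04) and fibrosis (3.79 to 4.92) lay wholly above healthy (0.19 to 3.12) and above cirrhosis (-1.28 to 1.81), while cirrhosis overlapped healthy. The Pdgfb to Pdgfrb ratio was 1.56 ± 1.03 in healthy, 3.31 ± 0.98 in acute, 1.97 ± 0.97 in fibrosis and -0.52 ± 0.85 in cirrhosis, with cirrhosis (-1.45 to 0.69) wholly below acute (2.07 to 4.52) and fibrosis (0.73 to 3.43) and overlapping healthy through 1 healthy library at -0.27. Between the classical ligands, the Pdgfb to Pdgfa ratio fell from 0.51 ± 0.57 in healthy to -2.33 ± 1.16 in acute and -1.5 ± 0.26 in fibrosis, without overlap, and stood at -0.55 ± 0.49 in cirrhosis, overlapping healthy. The Pdgfra to Pdgfrb ratio was 0.27 ± 0.30 in acute and -0.61 ± 0.23 in cirrhosis, without overlap, and -0.98 ± 0.75 in healthy and -0.91 ± 0.84 in fibrosis, which overlapped both.

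**Figure D4:**
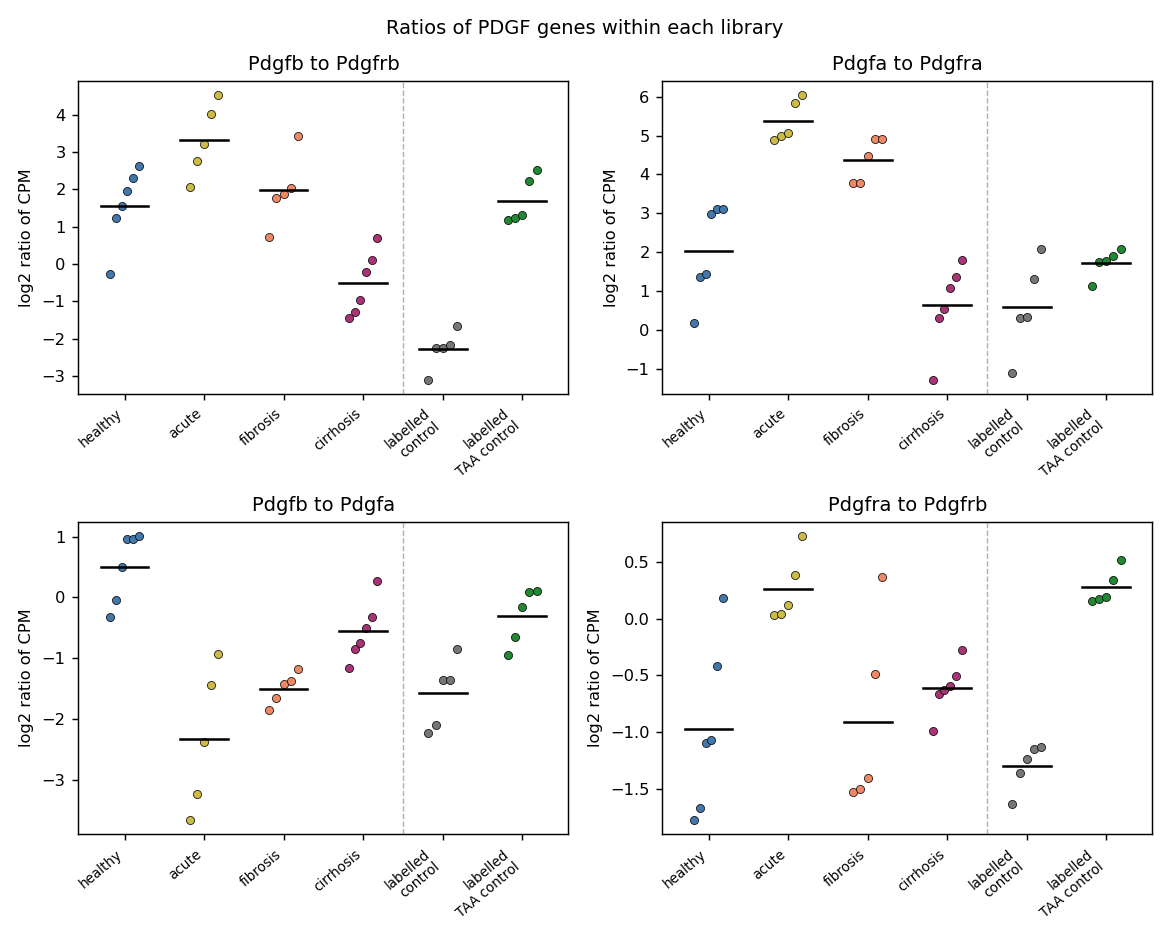
log2 ratios of CPM between PDGF genes within each library, 1 point a library, with the mean of each group as a bar; the dashed line separates the experiments. Pdgfa to Pdgfra was highest in acute and fibrosis libraries (means 5.37 and 4.38), and Pdgfb to Pdgfrb was lowest in cirrhosis libraries (mean -0.52) and in the libraries labelled control (mean -2.29).

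In the TAA experiment, Pdgfa, Pdgfb, Pdgfra and Pdgfrb were lower in the libraries labelled TAA control than in those labelled control. Pdgfa was at 41.8, 28.5, 33.6, 69.3 and 56.1 CPM in control and at 8.82, 9.85, 8.08, 13.5 and 11.8 CPM in TAA control, a log2 fold change of -2.12 ± 0.27 (SE, limma-voom adjusted p = 0.000152). Pdgfb was at 16, 15.6, 12.8, 15.9 and 11.6 CPM in control and at 7.86, 10.5, 8.72, 6.81 and 7.26 CPM in TAA control, a log2 fold change of -0.81 ± 0.14 (limma-voom adjusted p = 0.000956). That Pdgfb call was lost in one fit over all 32 libraries (-0.83, limma-voom adjusted p = 0.066). The ligand ranges did not overlap for either gene. Pdgfra was at 33.0, 61.7, 27.1, 16.1 and 22.1 CPM in control and at 3.73, 2.53, 1.81, 2.82 and 3.16 CPM in TAA control, a log2 fold change of -3.41 ± 0.50 (limma-voom adjusted p = 0.000345). Pdgfrb was at 78.3, 137, 59.9, 51.4 and 57.7 CPM in control and at 3.20, 1.88, 1.11, 2.44 and 2.78 CPM in TAA control, a log2 fold change of -5.09 ± 0.47 (limma-voom adjusted p = 2.7e-05). These receptor ranges were also separate, and all 4 genes without overlap compare with a background of 35.6% of genes without overlap and 16.4% wholly lower in TAA control (19.2% were wholly higher). Pdgfd did not differ by the test, at 7.15 ± 1.89 CPM (SD, n = 5) in control and 6.72 ± 1.27 (n = 5) in TAA control (log2 fold change -0.07, 95% interval -0.49 to 0.36, limma-voom adjusted p = 0.793). Pdgfc, at 0.474 ± 0.293 and 0.232 ± 0.118 CPM, did not pass the filter on low counts and was not tested. Of 17 stellate cell markers tested, 13 were lower and none higher in TAA control, from a mean log2 CPM of 5.20 to 3.30, as were 7 of 9 smooth muscle and portal fibroblast markers, from 3.25 to 1.5; their part in the receptor result was not tested. LSEC markers stood at a mean log2 CPM of 9.75 in control and 10.3 in TAA control, with 4 of 11 higher in TAA control. Also in TAA control, 12 of 14 immediate-early and dissociation genes were higher (median 1.52), 7 of 7 cholangiocyte markers (median -2.07) and 6 of 9 hepatocyte markers (median -1.68) were lower, and 5 of 11 capillary and large-vessel markers were lower and 3 higher. Of the other lists, 1 of 8 pan-endothelial, 1 of 11 macrophage and 2 of 4 lymphocyte markers were higher and 1 of 6 platelet markers was lower. Over all genes tested there, 14.9% were called lower and 12.7% higher in TAA control. The part of these lists in the PDGF differences was not tested. Relative to the mean of the 17 stellate cell markers, Pdgfrb was lower in TAA control, at -1.88 ± 0.29 (SD, n = 5) against 0.98 ± 0.26 (n = 5). Pdgfra was lower too, at -1.60 ± 0.17 against -0.32 ± 0.38, and neither receptor showed overlap. The markers in that mean differed unequally, from 32.7 to 1.55 CPM for Rgs5 and from 117 to 91.1 CPM for Lrat. A difference from their mean therefore does not remove the part of stellate cells, which was not tested.

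Around the members, genes that retain, cleave or carry PDGF moved in both directions at each stage. Of the 9 tested in acute injury and the 10 tested in fibrosis and in cirrhosis, of 11 listed, 1 rose and 5 fell in acute injury, 1 rose and 5 fell in fibrosis, and 2 rose and 2 fell in cirrhosis, with median log2 fold changes of -0.89, -0.64 and 0.09 beside -0.09, -0.03 and 0.07 over all genes. Of all genes, 37.9%, 34.9% and 24.7% fell and 35.5%, 35.3% and 27.1% rose at these stages. Sparc, a matrix protein that binds PDGF-B, fell from 2157 CPM in healthy to 214 in acute (log2 fold change -3.30, limma-voom adjusted p = 4.36e-08) and 183 in fibrosis (-3.52, limma-voom adjusted p = 1.45e-07). Plat, the plasminogen activator that cleaves PDGF-C, fell from 208 to 23.1 CPM in acute injury (-3.10, limma-voom adjusted p = 2.31e-08) and rose to 1002 CPM in cirrhosis (2.22 ± 0.24, limma-voom adjusted p = 6.94e-05). Plau, the plasminogen activator that cleaves PDGF-D, fell to 22.8 CPM in fibrosis from 144 in healthy (-2.56, limma-voom adjusted p = 0.000113). Pcsk5, a proprotein convertase, rose by 0.76 in acute injury and 0.94 in fibrosis (limma-voom adjusted p = 0.0102 and 5.43e-05), whereas Furin fell by 0.77 in cirrhosis (limma-voom adjusted p = 0.00985). Ndst1, an enzyme of heparan sulphate synthesis, fell by 0.79 in cirrhosis (limma-voom adjusted p = 0.00522), and A2m, a plasma carrier of PDGF also made by hepatocytes, rose by 4.26 with a large error (SE 1.26, limma-voom adjusted p = 0.0114) and overlapping groups, at 4.26 against 1.41 CPM.

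Of 29 signalling genes tested downstream of the receptors, 10 rose and 12 fell in acute injury, 10 rose and 13 fell in fibrosis, and 8 rose and 9 fell in cirrhosis. Their median log2 fold changes were -0.41, -0.29 and 0.33, beside the same medians and shares of all genes, and the genes named from the list describe themselves and not the list. The catalytic phosphoinositide 3-kinase subunits Pik3ca and Pik3cb rose most in acute injury (log2 fold change of 2.99 and 2.11, limma-voom adjusted p = 3.33e-06 and 1.62e-06) and in fibrosis (3.02 and 2.19, limma-voom adjusted p = 2.55e-06 and 1.59e-06). Stat5a, a transcription factor, and Plcg1, the phospholipase bound by the activated receptors, fell most, by 2.45 and 1.97 in acute injury (limma-voom adjusted p = 6.62e-06 and 3.62e-07) and by 1.75 and 1.67 in fibrosis (limma-voom adjusted p = 6.27e-05 and 1.49e-06). In cirrhosis the Src-family kinase Yes1 rose, by 1.49 (limma-voom adjusted p = 0.0162), and the MAPK cascade kinases Map2k2 and Mapk3 fell, by 1.5 and 1.43 (limma-voom adjusted p = 0.000154 and 0.000163).

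Among 17 negative regulators of the receptors, 9 rose and 7 fell in acute injury, 9 rose and 6 fell in fibrosis, and 6 rose and 5 fell in cirrhosis. Their medians were 0.77, 0.66 and 0.21, beside -0.09, -0.03 and 0.07 over all genes. The shares of all genes were 35.5%, 35.3% and 27.1% higher and 37.9%, 34.9% and 24.7% lower. Rasa1, the Ras GTPase activator that docks on PDGFR-beta, rose at each stage, by 1.63, 1.61 and 1.69 (limma-voom adjusted p = 0.00606, 0.00747 and 0.00562). Acp1, a low-molecular-weight tyrosine phosphatase, rose by 1.52 in acute injury (limma-voom adjusted p = 1.82e-05), the feedback inhibitor Spry2 rose by 1.84 in fibrosis (limma-voom adjusted p = 2.05e-06), and Ptprj, a receptor phosphatase, rose by 1.20 in cirrhosis (limma-voom adjusted p = 0.00187). The cytokine-signalling suppressors Socs3 and Socs1 fell by 5.80 and 4.5 in acute injury (limma-voom adjusted p = 4.47e-09 and 4.93e-07) and by 5.53 and 3.47 in fibrosis (limma-voom adjusted p = 1.44e-08 and 1.52e-06). In cirrhosis Socs1 fell by 1.41 and Spry1 by 1.03 (limma-voom adjusted p = 0.000863 and 0.00131). Socs3 responds rapidly to cytokines, and the immediate-early genes fell in the same acute and fibrosis libraries; their part in these values was not tested.

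The related VEGF ligands and class III receptor kinases numbered 12. Of these, 4 rose and 5 fell in acute injury, 5 rose and 5 fell in fibrosis, and 3 rose and 1 fell in cirrhosis. Over all genes, 35.5% rose and 37.9% fell in acute injury, 35.3% and 34.9% in fibrosis, and 27.1% and 24.7% in cirrhosis. Pgf, a VEGF-family ligand of Flt1, rose from 2.58 CPM in healthy to 51.7 in acute (log2 fold change 4.36, limma-voom adjusted p = 4.69e-05) and 113 in fibrosis (5.87, limma-voom adjusted p = 4.27e-08), and Vegfa rose by 2.64 and 2.47 (limma-voom adjusted p = 1.03e-05 and 5.01e-06). Kdr, the main VEGF receptor of endothelium, fell by 3.96 and 3.59 (limma-voom adjusted p = 6.63e-07 and 1.75e-07), Flt3 fell by 3.77 in acute injury (limma-voom adjusted p = 0.000618) and the macrophage receptor Csf1r fell by 3.94 in fibrosis (limma-voom adjusted p = 3.87e-05). In cirrhosis the lymphangiogenic ligands Vegfc and Vegfd rose by 3.05 and 2.90 (limma-voom adjusted p = 2.69e-05 and 0.000193), while their receptor Flt4 fell by 0.79 (limma-voom adjusted p = 0.00104).

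For each member, the genes whose centred log2 CPM lay closest to it over the 22 libraries of the CCl4 experiment were found among 10978 genes, or 10979 for Pdgfc, by the root mean squared difference. For Pdgfa these were Tbk1 (0.351), Nup54 (0.367) and Ugdh (0.376), where the spread of Pdgfa about its own mean was 1.06. For Pdgfb they were Fam129a (0.461), Mras (0.498) and Rgl3 (0.511), little closer than the 0.629 by which Pdgfb itself varied. For Pdgfc they were Dixdc1 (0.347), Patj (0.348) and Abcg2 (0.363), against 0.543, and for Pdgfd Asph (0.252), Ica1 (0.252) and Plscr4 (0.274), against 0.983. Pdgfra lay closest to Bmp5 (0.479), Gucy1a3 (0.533) and Gucy1b3 (0.57), against 1.65, and Pdgfrb to Adamts2 (0.436), Col6a1 (0.475) and Lama2 (0.494), against 1.82. Gucy1a3 and Gucy1b3 encode the subunits of the nitric oxide receptor guanylate cyclase, and Col6a1 and Lama2 encode matrix proteins. Bmp5 stood at 1.90 CPM in healthy, 0.317 in acute, 0.786 in fibrosis and 14.7 in cirrhosis, and Col6a1 at 35.1, 3.5, 15.8 and 117 CPM, the order of their respective receptors except that Col6a1 was lower in fibrosis than in healthy.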

How the data were processed

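RNA-seq tables of 32 rat LSEC libraries were analysed. The authors prepared stranded mRNA libraries, mapped reads to Rnor_6.0 with STAR and deposited estimated gene counts (expected counts) from RSEM; FastQC and Trim Galore are named in the submitters' processing notes, and tool versions and the annotation release are not given in the sources used here. The expected counts were rounded. Depth was 25646531 to 46464289 counts a library.

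Genes were filtered with filterByExpr and each pair of groups was fitted alone with TMM factors and limma-voom (limma 3.58.1, edgeR 4.0.16, R 4.3.3), the study's own methods, with Benjamini-Hochberg adjustment over all genes in place of its unadjusted p. Calls needed an adjusted p below 0.05 and a fold change above 1.5. CPM used TMM factors over 32 libraries; log2 CPM used a pseudocount of 0.5. TMM factors were 0.693 to 0.944 in healthy and 0.970 to 1.16 in all other libraries. Fold changes with library size alone instead are shifted, over all genes, to medians of 0.32, 0.37 and 0.42 against healthy in acute, fibrosis and cirrhosis. Scripts were tested on simulated data in which few genes changed. That test does not check the scaling where as many genes differ as against healthy.

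The members always were named; of each pathway list, the 2 called genes with the largest rise and fall against healthy were named, and for each member the 3 closest genes. A result that this rule would name is not reported here. The members and lists were chosen with earlier results of these data known. Groups follow the labels; the study describes the libraries of a group as independent LSEC isolations, and p-values measure the spread between them. In the group labelled TAA control, replicates 14 and 15 had a chi-square per degree of freedom of 2.96, against 25.9 to 65.1 for the other pairs of that group. They were kept apart. Whether they came from the same rat is not stated. If they did, the n and the errors of that group count that rat more than once. edgeR quasi-likelihood, DESeq2 1.42.0, other scalings, filters and left-out libraries were tried as alternatives. Markers without a single row (7 symbols without a row, 2 with several) were left out of list means. Promoters and motif shares came from RefSeq (GRCr8); no transcript lengths or proteins were used here, so levels are not compared between genes.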

Additional observations from a re-analysis of the deposited data

Results flagged for a closer look

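Each member's log2 CPM, each ratio and each receptor relative to the stellate cell markers was examined within each group for a library whose gap to its nearest neighbour exceeded Dixon's 95% critical value, 72 groups of values in all, of which chance alone flags about 1 in 20; 2 libraries stood out. Acute replicate 8 had the highest Pdgfa level, 7.13 on the log2 CPM scale, with the next library at 6.11 and a gap of 0.742 of the group's range. Without it the rise of Pdgfa in acute injury against healthy was 2.08 and was still called. Fibrosis replicate 13 had the highest Pdgfb level, 5.39, with the next library at 4.72 and a gap of 0.841 of the range. Without it Pdgfb differed between fibrosis and acute by 0.93 on the log2 scale and no longer passed (limma-voom adjusted p = 0.0904).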

How the results depend on the processing

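Of 41 member differences tested, 28 were called, and 20 of those passed in every alternative that tested them; no called difference reversed. PDGF members called numbered 3 in acute injury (5 in one fit over the experiment), 2 in fibrosis (4 with library size only), and 4 for fibrosis against acute (2 with edgeR, in one fit and with no low-count filter, and 1 to 3 without a replicate). All genes called for fibrosis against acute numbered 1529 (2826 without the fold threshold, 746 in one fit, 2346 with library weights, 1011 to 2166 without a replicate), and 3970 for TAA control against control (7139 without the fold threshold). Library size only gave 71.3% of calls higher in cirrhosis against healthy in place of 52.2%, and 60.9% in place of 50.3% in fibrosis, and Pdgfb then passed in fibrosis and cirrhosis (0.86 and 0.70). Without the collagen genes, Pdgfra relative to stellate cell markers was 0.21 in control and -1.37 in TAA control, and Pdgfrb 0.63 in cirrhosis and 1.51 in control.

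Values that reversed were not called: Pdgfra in fibrosis against healthy (-0.14 with edgeR, -0.11 with DESeq2, -0.23 to 0.41 without a replicate), Pdgfrb there (0.21 with edgeR, 0.25 with DESeq2, 0.02 with DESeq2 size factors, 0.40 with library size only, 0.51 with library weights, -0.31 to 0.45 without a replicate), Pdgfb in cirrhosis against fibrosis (0.0376 with upper-quartile factors, -0.16 to 0.0843 without a replicate) and Pdgfd in TAA control against control (0.00417 with replicates 14 and 15 averaged, an alternative chosen after seeing the data, and -0.16 to 0.0551 without a replicate). The cause was not tested.

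Same-numbered libraries did not deviate together (correlations of -0.27 to 0.30). With the replicate number as a block, 10896 genes were called in acute injury, 7275 in cirrhosis and 9979 for cirrhosis against acute. Lost with it were 2 member calls, Pdgfc in cirrhosis (1.04, limma-voom adjusted p = 0.0868) and Pdgfa in cirrhosis against acute (-0.59, limma-voom adjusted p = 0.0722). The same libraries without the block also lost the Pdgfa call. They lost Pdgfb in cirrhosis against acute (0.78, limma-voom adjusted p = 0.0879) and Pdgfd in acute injury (-0.79, limma-voom adjusted p = 0.0568) too. No paired analysis was possible for fibrosis and the TAA experiment because their groups share no numbers. Depth limits Pdgfc, at 2 to 59 counts a library.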
